A study of Saccharomyces cerevisiae with 10 samples.

Results

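The 10 genes described here encode the enzymes that make valine, isoleucine and leucine in the yeast *Saccharomyces cerevisiae*. They were taken by systematic name from the 6607 genes of the count table, and all 10 passed the filter on low counts that left 5856 genes for testing. *ILV2* (YMR108W) and *ILV6* (YCL009C) encode the catalytic and the regulatory subunit of acetolactate synthase. *ILV5* (YLR355C) and *ILV3* (YJR016C) encode the reductoisomerase and the dehydratase that follow it. *BAT1* (YHR208W) and *BAT2* (YJR148W) are the mitochondrial and the cytosolic branched-chain aminotransferase. *LEU4* (YNL104C) and *LEU9* (YOR108W) are paralogous α-isopropylmalate synthases, *LEU1* (YGL009C) is isopropylmalate isomerase, and *LEU2* (YCL018W) is β-isopropylmalate dehydrogenase. *LEU2* was also the selective marker of the plasmids carried in the later groups, so its transcripts have a source that those of the other 9 genes lack. In the R64 genome *LEU2* lies on the forward strand of chromosome III (91324 to 92418) and *ILV6* on the reverse strand of the same chromosome (104619 to 105548). *LEU1* is on the reverse strand of chromosome VII (476313 to 478652), *BAT1* on the forward strand of chromosome VIII (517532 to 518713) and *BAT2* on the forward strand of chromosome X (705744 to 706874).

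RNA was sequenced from 10 cultures of a haploid *MATa* strain, in a study of how cells live with *sup35-218*, a nonsense allele of the essential translation termination factor gene *SUP35*. All cultures carried the nonsense alleles *ade1-14* and *trp1-289*, the auxotrophic markers *ura3-52*, *his3-d200* and *lys2*, a frameshift allele of *leu2*, and *HIS3MX* in place of chromosomal *SUP35*, so that a plasmid was the sole source of *SUP35*. The 3 stage 1 cultures held *SUP35* on a *URA3*-marked plasmid. After a plasmid shuffle, in which cells that still carried the *URA3* plasmid were removed with 5-fluoroorotic acid, 4 stage 3 cultures held wild-type *SUP35* and 3 held *sup35-218*, each on a centromeric plasmid marked with *LEU2*. By the study's methods the RNA came from medium lacking uracil or leucine, which by the marker means SC without uracil (with leucine) at stage 1 and SC without leucine at stage 3. The sample labels differ from the methods: they give SC for every culture, and for the stage 3 *SUP35* cultures they give pRSU2, the *URA3* plasmid of stage 1. That these cultures carried a *LEU2* plasmid is therefore taken from the methods. The *leu2* frameshift allele stayed on the chromosome throughout, so at stage 3 the *LEU2* count adds transcripts of the chromosome and of the plasmid, and these cannot be told apart here.

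As background, the first steps of the pathway run in mitochondria, and leucine synthesis branches off from the last intermediate of valine synthesis. α-Isopropylmalate, made by Leu4 and Leu9 and consumed by Leu1, is both an intermediate and the ligand that turns the transcription factor Leu3 from a repressor into an activator of several genes of the pathway, and leucine inhibits Leu4. Gcn4, whose synthesis rises when amino acids are short, activates many amino acid genes, these among them.

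The letters that Leu3 and Gcn4 are known to bind were looked up in the 500 bases before each start codon, on both strands of the R64 reference genome (RefSeq). The Leu3 pattern, CCG and CGG with any 4 bases between them, was present before 7 of the 10 genes (*LEU2*, *LEU1*, *BAT1*, *BAT2*, *ILV5*, *ILV2* and *LEU9*) and before 3.27% of 6574 genes. Its longer form, CCGG and CCGG with any 2 bases between them, a part of the same matches that was looked up after the sites had been seen, was present before 5 of the 10 and before 0.259% of all genes. The Gcn4 pattern TGACTCA was also present before 7 of the 10 (*ILV6*, *LEU1*, *BAT1*, *ILV3*, *ILV5*, *LEU4* and *LEU9*) and before 4.17% of all genes, and its core TGACTC, which is contained in it, before 13.2%. Of 14 further genes around the pathway, 3 (*BAP2*, *OAC1* and *GDH1*) had the Leu3 pattern. These are matches of letters and not measured binding sites. The sites shown let *LEU1* be set beside *LEU2*, *BAT1* beside its paralog *BAT2*, and both beside a carrier and a permease, with 2 genes that have the Gcn4 letters alone, each read 5′ to 3′ on the strand of its gene, with the pattern in capitals.
LEU2, chrIII:91114-91147, forward strand: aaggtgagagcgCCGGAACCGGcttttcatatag
LEU1 distal site, chrVII:478848-478881, reverse strand: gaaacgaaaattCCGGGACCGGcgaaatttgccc
LEU1 proximal site, chrVII:478818-478851, reverse strand: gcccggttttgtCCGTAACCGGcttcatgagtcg
BAT1, chrVIII:517373-517406, forward strand: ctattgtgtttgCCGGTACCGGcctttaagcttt
BAT2, chrX:705398-705431, forward strand: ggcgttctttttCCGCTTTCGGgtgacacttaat
OAC1, chrXI:216848-216881, forward strand: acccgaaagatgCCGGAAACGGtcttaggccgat
BAP2, chrII:376055-376088, reverse strand: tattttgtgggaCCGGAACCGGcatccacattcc
ILV6, Gcn4 pattern, chrIII:105680-105710, reverse strand: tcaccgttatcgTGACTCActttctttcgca
ILV3, Gcn4 pattern, chrX:466325-466355, reverse strand: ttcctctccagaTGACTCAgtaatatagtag

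*OAC1* and *BAP2*, shown among them, are not enzymes of the pathway but a mitochondrial carrier and a leucine permease, described further on. *GDH1*, the other further gene with the Leu3 pattern, has the longer form, which *OAC1* lacks, and its site is not shown. The Leu3 letters of *LEU2* lie 198 to 189 bases before its start codon, and the distal ones of *LEU1* 217 to 208 bases before. *BAT1* and *BAT2*, a pair of paralogs, both hold the short pattern, but only *BAT1* has the longer form and a Gcn4 pattern. *ILV6* and *ILV3* have the Gcn4 pattern without the Leu3 letters, as does *LEU4*, whose site is not shown.

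Total counts were 3044096 to 4861009 per culture, and the 10 genes had 361 to 28674 counts in a culture. Levels are normalized CPM (counts per 1000000 counts of the library, with library sizes corrected by TMM). Differences are log2FC ± standard error from edgeR's quasi-likelihood test, in a fit of all 5856 genes over all 10 cultures, with p-values adjusted by the Benjamini-Hochberg method over all genes tested. A gene is called where the adjusted p is under 0.05 and the log2FC is above 0.5 in size. *URA3*, the stage 1 marker, had 829 to 1091 normalized CPM at stage 1, 71.9 to 94.4 in the *SUP35* cultures of stage 3 and 59.2 to 79.8 in the *sup35-218* cultures, so the stage 3 *SUP35* cultures, for which the labels name the *URA3* plasmid, were as low as the *sup35-218* cultures, for which they name another.

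From stage 1 to stage 3 with the same wild-type *SUP35*, 8 of the 10 genes were called, 7 lower and *LEU2* higher, while 13.8% of all genes tested were called (6.63% lower and 7.21% higher). The median log2FC of the 10 genes was -0.95, against 0.00 over all genes tested. *LEU1* fell most, and its neighbour in the pathway, *LEU2*, was the gene that rose. For 8 of the 10 genes every stage 3 culture was below every stage 1 culture, and none was apart and higher. Of all genes tested, 33.0% were apart in either direction, 17.5% lower and 15.5% higher.

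The acetolactate synthase subunits did not move together. *ILV2* had 1633, 1440.4 and 1406 normalized CPM in the stage 1 cultures and 743, 822, 736 and 749.6 in the stage 3 *SUP35* cultures. *ILV6* had 621, 563 and 566 at stage 1 and 1060.5, 846, 721 and 585 at stage 3. *ILV2* was thus clearly apart and lower, whereas for *ILV6* the stage 3 cultures reached from the stage 1 level to well above it. The log2FC of *ILV2* was -0.97 ± 0.11 (adjusted p = 5.5e-05). That of *ILV6* was 0.46 ± 0.17 (adjusted p = 0.0666), which missed the call, although without replicate 4 of stage 3, its lowest culture there, it was 0.59 (adjusted p = 0.0172).

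The next enzymes of the common path fell. *ILV5* levels were 1711 to 2245 normalized CPM at stage 1 and 880.5 to 1077 at stage 3, with a log2FC of -1.02 ± 0.14 (adjusted p = 2.1e-04). *ILV3*, the dehydratase, had 2296, 2047 and 2251 at stage 1 and 1213, 1322, 1053 and 1039 at stage 3, with a log2FC of -0.93 ± 0.13 (adjusted p = 3.7e-04). Neither gene's groups overlapped.

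Of the aminotransferases, *BAT1* had 2330.1, 2142 and 1916 normalized CPM at stage 1 and 797, 813, 695 and 792 at stage 3, and its log2FC was -1.46 ± 0.12 (adjusted p = 3.1e-06). *BAT2* had 404, 430.3 and 392 at stage 1 and 307, 309.8, 306 and 253 at stage 3. All stage 3 cultures were lower for both genes, but the log2FC of *BAT2*, -0.48 ± 0.10 (adjusted p = 0.00389), stayed inside the cutoff of 0.5, which it passed without replicate 3 of stage 1 (-0.51, adjusted p = 0.0067).

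In the leucine branch, *LEU4* had 2386, 2037 and 2028 normalized CPM at stage 1 and 1419, 1180.2, 1081 and 980.3 at stage 3, with a log2FC of -0.88 ± 0.14 (adjusted p = 6.2e-04). Its paralog *LEU9* had 472 to 558 at stage 1 and 195 to 241 at stage 3, and a log2FC of -1.22 ± 0.13 (adjusted p = 2.6e-05). Both synthases were lower in all stage 3 cultures. *LEU1* had 7289, 5646 and 4975 at stage 1 and 554, 750.0, 729.8 and 938 at stage 3. Its means were 5970.0 ± 1190.3 (SD, n = 3) and 743 ± 157 (SD, n = 4), an 8.04-fold lower level and a log2FC of -3.01 ± 0.19 (adjusted p = 4.0e-07). This was the second most negative log2FC of the 5856 genes tested.

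*LEU2* had 1853, 1589 and 1434 normalized CPM at stage 1, where only the chromosomal frameshift copy was present, and 2574, 2586, 1733 and 2743 in the stage 3 *SUP35* cultures. Replicate 3 of stage 3 lay within the stage 1 range, and the other 3 lay above it. The means were 1625 ± 212 (SD, n = 3) and 2409 ± 457 (SD, n = 4), and the log2FC was 0.57 ± 0.17 (adjusted p = 0.0252). This call was lost, at a log2FC of 0.49 to 0.55 and an adjusted p of 0.0548 to 0.0882, when any of stage 1 replicates 2 and 3 or stage 3 replicates 2 and 4 was left out. What marker, medium and plasmid shuffle each contributed to these differences cannot be told apart, because no group had one without the others.

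**Figure D1:**
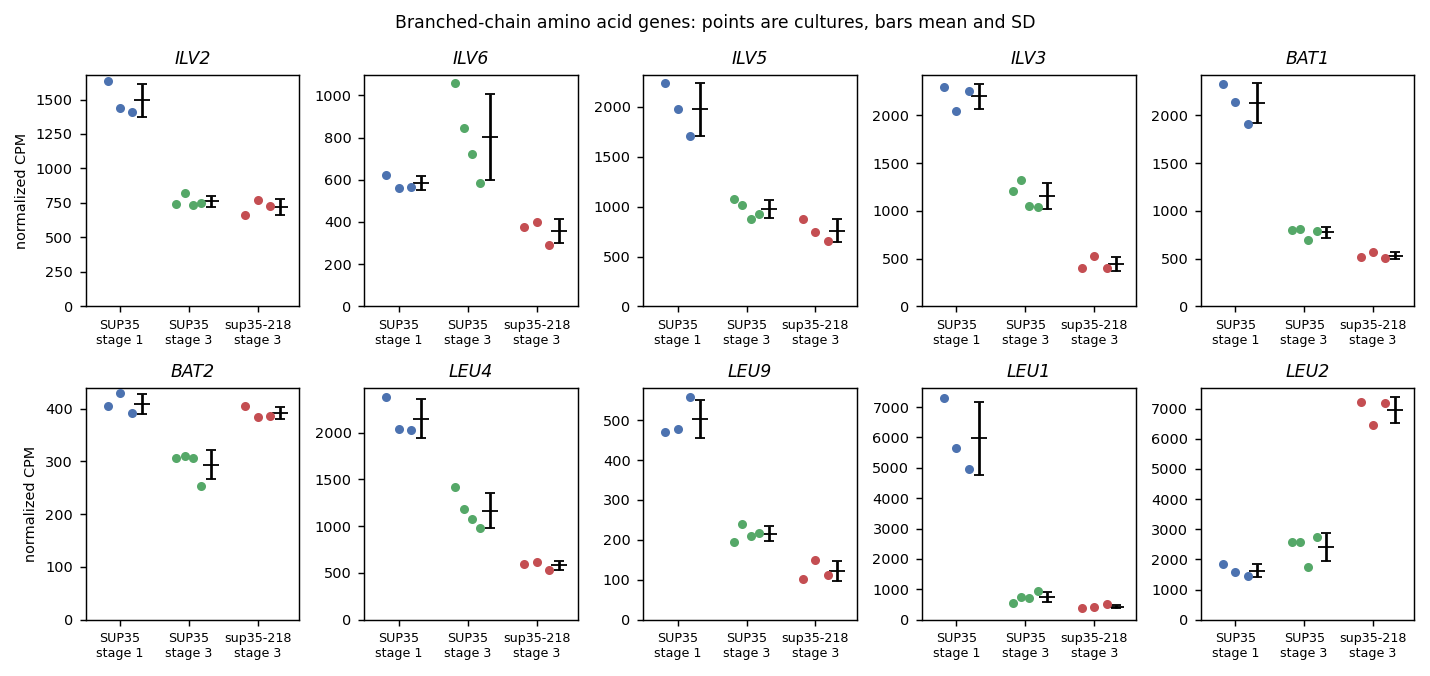
Normalized CPM of the 10 genes in each of the 10 cultures on linear axes, with points for cultures and bars for mean and SD. The groups are *SUP35* stage 1, *SUP35* stage 3 and *sup35-218* stage 3 in order. *LEU1* drops from 4975 or more at stage 1 to 938 or less at stage 3, while *LEU2* is highest in the 3 *sup35-218* cultures, at 6453 or more.

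The *sup35-218* cultures were then compared with the *SUP35* cultures of stage 3. These groups share the *LEU2* marker and the medium and differ in the *SUP35* allele on the plasmid. The paper cites its authors' earlier work, in which cells with *sup35-218* held more copies of the plasmid, so the dose of the marker may differ too. Plasmid copies were not counted here, and their part in the differences was not tested. Here 7 of the 10 genes were called, 6 lower and *LEU2* higher, and 23.3% of all genes tested were called (12.6% lower and 10.7% higher). The median log2FC of the 10 genes was -0.66, against -0.01 over all genes. Groups did not overlap for 8 genes, 6 of them lower and 2 (*LEU2* and *BAT2*) higher in *sup35-218*, while 43.7% of all genes tested were apart, 22.8% lower and 20.9% higher.

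*LEU2* had 7221, 6453 and 7194 normalized CPM in the *sup35-218* cultures, each of them far above the highest *SUP35* culture of stage 3. The mean was 6956 ± 435 (SD, n = 3), 2.89-fold above the stage 3 *SUP35* cultures, with a log2FC of 1.53 ± 0.17 (adjusted p = 2.0e-05). *SUP35*, the other gene of the plasmid counted here, had 809, 546, 505 and 547 in the *SUP35* cultures of stage 3 and 2185, 1833 and 1919 in the *sup35-218* cultures, a log2FC of 1.72 ± 0.16 (adjusted p = 7.1e-06). Per kilobase of gene, the ratio of *LEU2* to *SUP35* counts was 5.98 to 9.42 in the *SUP35* cultures and 6.21 to 7.05 in the *sup35-218* cultures. Its log2 difference was -0.19, with p = 0.514 in a two-sided exact permutation test, whose smallest possible p for 4 against 3 cultures is 0.0571. At stage 1 the ratio was 5.60 to 8.58, although *LEU2* was then read from the chromosome and *SUP35* from the plasmid.

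The 3 tested genes on each side of *LEU2* on chromosome III, 6 in all, show what its chromosomal surroundings did. Between the stage 3 groups, *NFS1*, the gene next to it among those tested, a cysteine desulfurase, had a log2FC of 0.33 ± 0.09 (adjusted p = 0.0085, edgeR), inside the cutoff. *KCC4*, *DCC1*, *BUD3* and *AGP1* had log2FC from -0.33 to 0.28. The short open reading frame YCL021W-A, at 19.3 to 58.9 normalized CPM, was called lower, with a log2FC of -1.25 ± 0.15 (adjusted p = 3.5e-05). None of the 6 rose past the cutoff.

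The other genes of the leucine branch fell further. *LEU1* had 386, 409 and 504 normalized CPM in *sup35-218*, all below the lowest *SUP35* culture of stage 3, and a log2FC of -0.78 ± 0.19 (adjusted p = 0.00527). *LEU4* had 591, 621 and 529 and a log2FC of -1.01 ± 0.14 (adjusted p = 1.5e-04). *LEU9* had 102, 149 and 112 and a log2FC of -0.83 ± 0.13 (adjusted p = 3.3e-04). The 3 genes that make and isomerise isopropylmalate were thus lower in *sup35-218*, in the same cultures in which *LEU2*, the following step, was higher.

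In the common path, *ILV6* and *ILV3* changed most. *ILV6* had 375, 402 and 292 normalized CPM in *sup35-218*, below every *SUP35* culture of both stages, and its log2FC was -1.17 ± 0.18 (adjusted p = 2.4e-04). *ILV3* had 403, 524 and 407, with a log2FC of -1.38 ± 0.14 (adjusted p = 1.3e-05). Both were lower in all *sup35-218* cultures. Both hold the Gcn4 letters without the Leu3 letters, as *LEU4* does. Of the genes with both patterns, *LEU1*, *LEU9* and *BAT1* were called lower and *ILV5* was not. Of those with the Leu3 letters alone, *LEU2* was called higher, and *ILV2* and *BAT2* were not called. What part these letters had in the differences was not tested.

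The catalytic subunit and the reductoisomerase did not pass the call. *ILV2* had 664 to 775 normalized CPM in *sup35-218*, overlapping the *SUP35* cultures of stage 3, with a log2FC of -0.08 ± 0.11 (adjusted p = 0.59). *ILV5* had 655 to 881 and a log2FC of -0.36 ± 0.14 (adjusted p = 0.0539). A missed call does not show that these levels were equal.

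The aminotransferase paralogs had log2FC of opposite sign. *BAT1* had 515, 573 and 502 normalized CPM in *sup35-218* and a log2FC of -0.55 ± 0.12 (adjusted p = 0.00260). This call is close to the cutoff: leaving out *SUP35* stage 3 replicate 1 or 2 or *sup35-218* replicate 1 or 3 brought it to between -0.49 and -0.48, with the adjusted p still under 0.05. *BAT2* had 404, 385 and 385, all above the *SUP35* cultures of stage 3, but its log2FC of 0.41 ± 0.10 (adjusted p = 0.00497) stayed inside the cutoff.

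**Figure D2:**
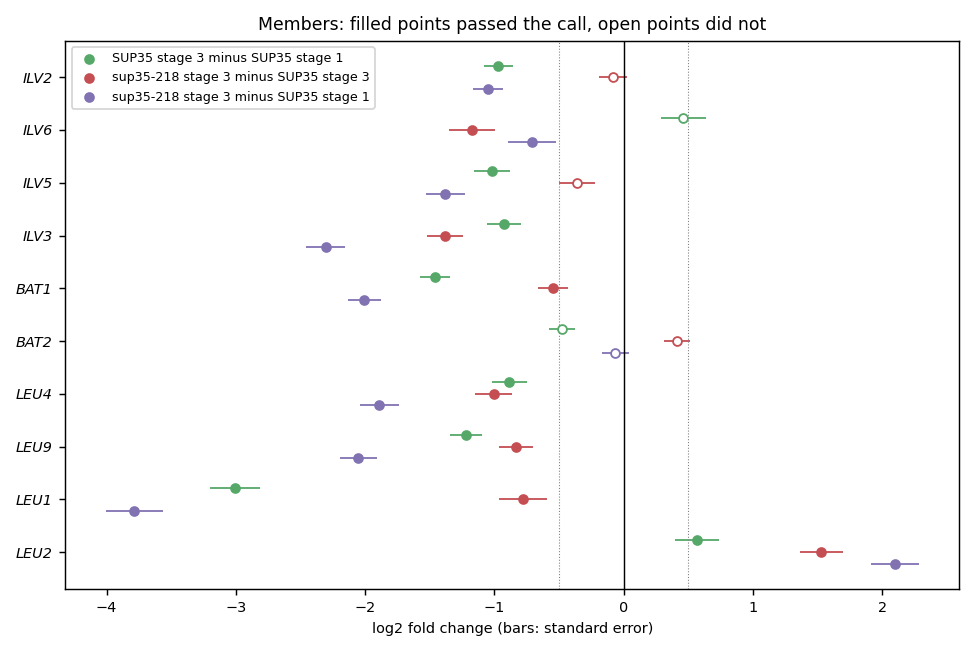
Log2 fold change of each gene in the 3 comparisons, with bars for the standard error, dotted lines at the cutoff of 0.5 and filled points for called genes. *LEU2* is the only gene to the right of the cutoff in any comparison, and *ILV6* lies on opposite sides of 0 in the first 2 comparisons.

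Between *sup35-218* and the stage 1 cultures, where allele, marker and medium all differ, 9 of the 10 genes were called, 8 lower and *LEU2* higher, and 31.2% of all genes tested were called (16.5% lower and 14.7% higher). Groups did not overlap for the same 9 genes, beside 56.5% of all genes tested (28.1% lower and 28.4% higher). The 3 comparisons share cultures and are given side by side, not as separate evidence. *LEU1* was 13.8-fold lower, with a log2FC of -3.79 ± 0.22 (adjusted p = 7.0e-08), again the second most negative of all genes tested. *LEU2* was higher by a log2FC of 2.10 ± 0.19 (adjusted p = 1.6e-06). *ILV3*, *LEU9*, *BAT1* and *LEU4* followed *LEU1*, with log2FC of -2.31, -2.05, -2.01 and -1.89, and then *ILV5*, *ILV2* and *ILV6* with -1.38, -1.05 and -0.71. *BAT2* was the exception, at -0.06 ± 0.11 (adjusted p = 0.65).

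The genes therefore fell into different courses over the 3 groups. *LEU1*, *LEU4*, *LEU9*, *ILV3* and *BAT1* were lower in the *SUP35* cultures of stage 3 than at stage 1 and lower again in *sup35-218*, with no overlap between groups at either step. *ILV2* and *ILV5* made the first step, and their second was not called. *ILV6* was called at the second step and not at the first, *BAT2* at neither, and *LEU2* was called higher at both. Over the 10 cultures, the Pearson r of each gene's log2 normalized CPM with the mean of the others (without *LEU2*) was 0.92 to 0.99 for *BAT1*, *ILV5*, *LEU9*, *LEU4*, *LEU1*, *ILV2* and *ILV3*, 0.31 for *ILV6* and 0.19 for *BAT2*. For *LEU2* against the mean of the other 9 it was -0.84. These values describe 10 cultures that fall into 3 groups, so they mainly restate the group differences.

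The order of the levels changed with them. Per kilobase of gene, mean normalized CPM at stage 1 was highest for *LEU1*, at 2551, followed by *BAT1* at 1801, *ILV5* at 1665 and *LEU2* at 1484, with *LEU9* lowest at 277. In *sup35-218*, *LEU2* was highest at 6352, *ILV5* came next at 639.7 and *LEU9* was again lowest at 66.7. *LEU1* was then at 185 per kilobase. The ratio of *LEU2* to *LEU1* per kilobase, chosen after the values had been seen, was 0.543 to 0.616 at stage 1, 5.08 to 9.93 in the stage 3 *SUP35* cultures and 30.5 to 40.0 in *sup35-218*.

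As a share of all counts, the 10 genes took 1.91% at stage 1, 0.925% in the *SUP35* cultures of stage 3 and 1.13% in *sup35-218* (means of 3, 4 and 3 cultures). Without *LEU2*, the share was 1.75 ± 0.192%, 0.686 ± 0.0408% and 0.435 ± 0.0263% (SD), lower in each later group with no overlap. *LEU2* alone made up 8.53 ± 0.182% of the counts of the 10 genes at stage 1, 25.8 ± 3.47% in the stage 3 *SUP35* cultures and 61.6 ± 2.72% in *sup35-218*, and *LEU1* made up 31.2 ± 2.52%, 8.07 ± 1.97% and 3.84 ± 0.568% (SD).

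**Figure D3:**
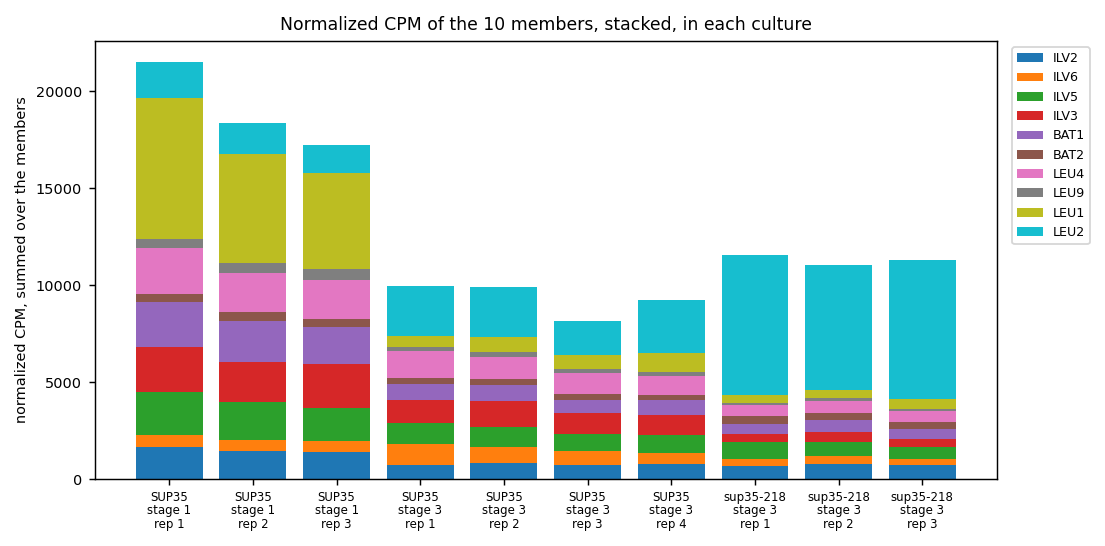
Normalized CPM of each of the 10 genes in each culture, stacked from 0. As a share of library counts, the 10 genes fall from 1.75% or more in each stage 1 culture to 0.989% or less in each *SUP35* culture of stage 3. In the *sup35-218* cultures *LEU2* makes up 58.5% or more of the counts of the 10 genes.

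The balance within each paralog pair was taken as a ratio of counts. The ratio of *BAT1* to *BAT2* counts per kilobase had a geometric mean of 4.97 at stage 1, 2.53 in the *SUP35* cultures of stage 3 and 1.29 in *sup35-218*. Its ranges, 4.68 to 5.51, 2.17 to 3.00 and 1.22 to 1.43, did not overlap. In two-sided exact permutation tests the log2 difference was -0.98 from stage 1 to stage 3 *SUP35* (p = 0.0571), -0.96 between the stage 3 groups (p = 0.0571) and -1.94 from stage 1 to *sup35-218* (p = 0.1), each the smallest p that these group sizes allow. After adjustment over the 6 paralog tests they were 0.171, 0.171 and 0.2. The ratio of *LEU4* to *LEU9* was 4.17, 5.23 and 4.73, with overlapping ranges and exact p of 0.171, 0.629 and 0.5 for the same 3 comparisons.

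The ratio of *ILV2* to *ILV6* per kilobase, also chosen after the values had been seen and so given with no test, was 1.12 to 1.18 at stage 1, 0.315 to 0.578 in the *SUP35* cultures of stage 3 and 0.799 to 1.12 in *sup35-218*. The stage 3 *SUP35* cultures stood apart from both other groups. Among those 4 cultures, *ILV6* and *LEU4* were highest in replicate 1 and lowest in replicate 4, and *LEU1* was lowest in replicate 1 and highest in replicate 4. *ARG7* and *LYS20*, of arginine and lysine synthesis, ran from 1080.5 and 798 normalized CPM in replicate 1 to 564 and 364 in replicate 4. Other genes of these pathways differed: *LYS21* went only from 1035 to 940, and *LYS9* rose from 340 to 482. What such differences had to do with the spread of *ILV6* was not tested.

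**Figure D4:**
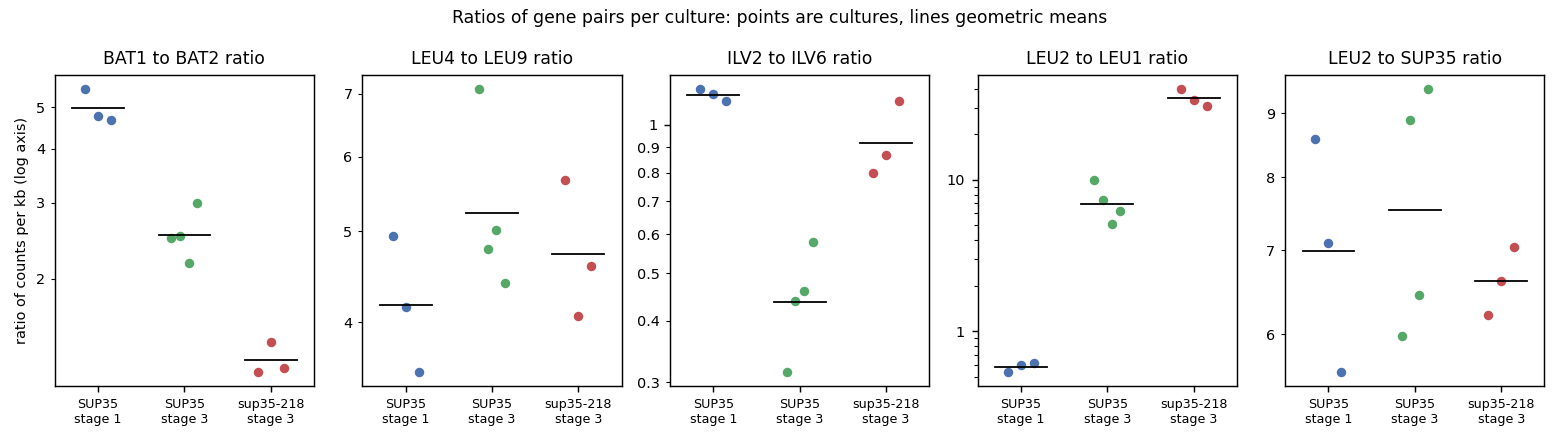
Ratios of counts per kilobase for 5 gene pairs in each culture, on log axes, with lines at the geometric mean of a group. The *BAT1* to *BAT2* ratio steps down from 4.97 through 2.53 to 1.29 without overlap, and the *LEU2* to *LEU1* ratio steps up from 0.586 through 6.94 to 34.5, whereas *LEU2* to *SUP35* overlaps in all groups.

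Around the pathway, 14 further genes of supply, regulation, transport and breakdown were listed, and all passed the filter. From stage 1 to the *SUP35* cultures of stage 3, 6 of them were called lower and none higher, beside 6.63% of all genes tested called lower and 7.21% higher, and their median log2FC was -0.37, against 0.00 over all genes. *OAC1*, a mitochondrial carrier of oxaloacetate that also carries α-isopropylmalate, had 881, 799.8 and 742 normalized CPM at stage 1 and 122, 127, 134 and 151 at stage 3, a log2FC of -2.60 ± 0.11 (adjusted p = 3.6e-09). *BAP2*, a permease of leucine, isoleucine and valine, had 1587, 1559 and 1431 and then 495, 454, 497 and 419.7, a log2FC of -1.71 ± 0.11 (adjusted p = 4.0e-07). Both were far below their stage 1 levels in every stage 3 culture, and *OAC1* had the fourth most negative log2FC of all genes tested.

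*LEU3*, which encodes the activator itself, had 217, 235 and 267 normalized CPM at stage 1, 159, 136, 127 and 120.1 in the *SUP35* cultures of stage 3 and 73.5, 87.2 and 73.0 in *sup35-218*. It fell at both steps, with log2FC of -0.82 ± 0.12 (adjusted p = 2.9e-04) and -0.80 ± 0.12 (adjusted p = 2.4e-04). The Gcn4 letters TGACTCA are present before *LEU3*. *GCN4* mRNA, at 759.7 to 909, 851 to 975 and 760.1 to 895, was not called in any comparison, with log2FC of 0.13 (adjusted p = 0.44) and -0.13 (adjusted p = 0.39) for the first 2. Regulation of *GCN4* is mainly translational, which mRNA counts do not measure.

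In *sup35-218* against the *SUP35* cultures of stage 3, 4 of the 14 were called lower and 2 higher, beside 12.6% of all genes tested called lower and 10.7% higher, so the share that was higher was near that of all genes. *OAC1* and *BAP2* had log2FC of -0.17 (adjusted p = 0.26) and 0.02 (adjusted p = 0.91), with overlapping groups, so these genes fell with *LEU1* at the first step and were not called at the second. *ILV1*, threonine deaminase and the entry to isoleucine, was called lower only here and against stage 1, at -0.66 ± 0.11 (adjusted p = 5.4e-04) between the stage 3 groups. *GAP1*, the general amino acid permease, had 84.9 to 126, 49.2 to 61.7 and 25.2 to 36.1 normalized CPM and was lower at both steps, by -0.84 (adjusted p = 0.00162) and -0.95 (adjusted p = 7.1e-04). *THI3* was also called lower between the stage 3 groups, at -0.64 (adjusted p = 1.4e-04). The other 5 of the list, *GDH1*, *BAP3*, *AGP1*, *SSY1* and *STP1*, were called at neither step, with log2FC of -0.27, -0.38, -0.37, -0.25 and -0.06 from stage 1 to stage 3 and 0.18, -0.26, -0.33, 0.02 and 0.19 between the stage 3 groups. With a culture left out, *GDH1* ranged from -0.50 to -0.11 in the first comparison and from 0.08 to 0.41 in the second, and *SSY1* from -0.35 to -0.13 in the first, so these values are loosely fixed. At the first step *BAP3* (adjusted p = 0.0139, edgeR) and *AGP1* (adjusted p = 0.0318, edgeR) were lower inside the cutoff, with no overlap between groups. Against stage 1 both were called lower in *sup35-218*, with log2FC of -0.63 and -0.70. *GDH1* has the longer form of the Leu3 pattern, as *BAP2* does, and was called in no comparison. Against stage 1, 9 of the 14 were called lower in *sup35-218* and none higher, beside 16.5% of all genes tested called lower and 14.7% higher. Both counts depend on single cultures: without *sup35-218* replicate 3 *TAT1* was called higher (0.54, adjusted p = 0.0033), and without replicate 2 *ARO10* was no longer called (-0.48, adjusted p = 0.0245).

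The 2 that were higher are *ARO10* and *TAT1*. *ARO10*, a decarboxylase of the Ehrlich pathway that breaks down keto acids from amino acids, had 583, 505 and 533 normalized CPM at stage 1, 145, 208, 207 and 200.4 in the *SUP35* cultures of stage 3 and 381, 327 and 364 in *sup35-218*. It thus fell at the first step by -1.51 (adjusted p = 5.0e-06) and was higher at the second by 0.91 (adjusted p = 1.4e-04). *TAT1*, a permease of tyrosine, tryptophan, valine and leucine that lies next to *BAP2* on chromosome II, had 184, 176 and 186 at stage 1, 98.5, 122, 121 and 123 in the *SUP35* cultures of stage 3 and 269.6, 244 and 136 in *sup35-218*. Its log2FC was -0.65 (adjusted p = 0.0177) and then 0.90 (adjusted p = 0.00149), with replicate 3 of *sup35-218* well below the other 2.

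**Figure D5:**
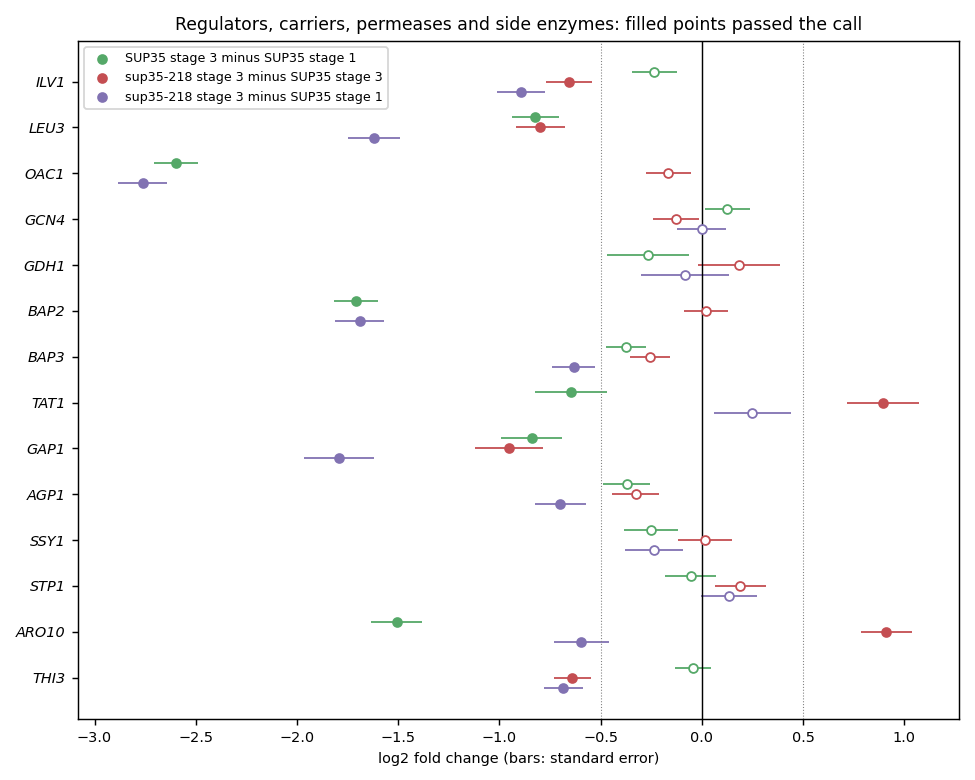
Log2 fold change of the 14 further genes in the 3 comparisons, drawn as for the pathway genes. *OAC1* and *BAP2* lie far to the left in both comparisons with stage 1 and near 0 between the stage 3 groups, while *ARO10* and *TAT1* change sides.

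Counts for other amino acid pathways are given beside these as a description, with *LYS2*, mutated in the strain, among the lysine genes. From stage 1 to the *SUP35* cultures of stage 3, 1 of 8 lysine genes and 3 of 9 arginine genes were called lower. None of them was called higher. Of all genes tested, 6.63% were called lower and 7.21% higher. The lysine gene called was *LYS2*, at a log2FC of -0.50008, barely past the cutoff (adjusted p = 0.0363, edgeR). Groups were apart and lower for 4 of 8 lysine genes and 4 of 9 arginine genes, beside 17.5% of all genes tested. Between the stage 3 groups, 5 of 8 lysine genes and 9 of 9 arginine genes were called lower, with median log2FC of -0.77 and -1.01. The same held for 6 of the 9 branched-chain genes other than *LEU2*, whose median was -0.78, and for 12.6% of all genes tested, whose median was -0.01.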

How the data were processed

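RNA-seq of 10 cultures was analysed: 3 of *SUP35* stage 1, 4 of *SUP35* stage 3 and 3 of *sup35-218* stage 3, grouped by the strain name in the labels and each a separate replicate there. The authors trimmed the read pairs (Trimmomatic), aligned them to the R64 genome (HISAT2) and deposited whole-number counts per gene from featureCounts, without normalization. Tool versions are not given in the sources used here, nor is the strand setting of the counting. Total counts were 3044096 to 4861009 per culture.

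Counts were fitted with edgeR 4.0.16 (R 4.3.3, limma 3.58.1) after TMM scaling and filterByExpr (minimum count 10), in 1 quasi-likelihood fit with 3 groups over 5856 genes, and the cutoff of 0.5 on log2FC is the study's. The standard error is the size of log2FC divided by the square root of F. Ratios of gene pairs were tested by exact permutation over cultures (fixed alternatives held no block for them, and 1 was added after seeing the data). The edgeR calls, but not the ratio tests, were tried on simulated data. The alternatives were DESeq2 1.42.0, other size factors, no filter, only the groups compared, other cutoffs, a replicate block and leaving out each culture.

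Named are the 10 genes, the 14 listed around the pathway, the plasmid genes, 3 tested neighbours on each side of *LEU2*, and the 5 genes most like *LEU2* or the other 9 by Pearson r. The *LEU2* to *LEU1* and *ILV2* to *ILV6* ratios, *ARG7* and *LYS20* were chosen after their values had been seen. The genes and lists were chosen with earlier results of these data known. Start codons were found at the deposited coordinates of 99.57% of 6579 genes in the reference, and sequences were read from it. RefSeq names matched 5924 of the 6607 genes.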

Additional observations from a re-analysis of the deposited data

Results flagged for a closer look

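Among the 4 *SUP35* cultures of stage 3, 26 genes named in the report were examined for a culture whose gap to its nearest neighbour was a large part of the whole range (Dixon's ratio, above its usual critical value), a rule that by chance flags about 1 in 20 groups. It marked 7 genes. Of the pathway, *ILV2* had a ratio of 0.845, with replicate 2 at 822 normalized CPM above 736 to 749.6 in the others, *BAT2* had 0.931, with replicate 4 at 253 below 306 to 309.8, and *LEU2* had 0.833, with replicate 3 at 1733 below 2574 to 2743. Of the further genes, *BAP3* had 0.881 (replicate 3 at 293, the others at 299 to 300.4), *TAT1* had 0.924 (replicate 1 at 98.5, the others at 121 to 123) and *ARO10* had 0.878 (replicate 1 at 145, the others at 200.4 to 208). *SUP35* had 0.861, with replicate 1 at 809 above 505 to 547. No single culture was the distant one for all 7.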

How the results depend on the processing

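Neither the size factors of DESeq2 nor the upper quartile, no filter, DESeq2's own test or a fit of only the groups compared changed the counts of called pathway genes from 8, 7 and 9 in the 3 comparisons. With a log2FC cutoff of 1 the counts were 4 (4 lower, 0 higher) from stage 1 to stage 3 *SUP35* and 4 (3 lower) between the stage 3 groups, and with the adjusted p alone 2 genes, *LEU2* and *BAT2*, were higher in the latter. Over all genes, the calls higher and lower in the 3 comparisons were 422 and 388, 628 and 735, and 863 and 965, against 741 and 748, 1082 and 1215, and 1342 and 1367 without the cutoff, and 43 and 78, 137 and 218, and 176 and 393 with a cutoff of 1. With a culture left out, the higher count from stage 1 to stage 3 *SUP35* was 0 to 1, and 1 without replicate 4 of stage 3 only because *ILV6* was called in place of *LEU2*. Some values near 0 changed sign with a culture left out: *ILV2* between the stage 3 groups (-0.098 to 0.015), with *BAP2* (-0.028 to 0.11), *SSY1* (-0.059 to 0.12) and the *LEU4* to *LEU9* ratio (-0.28 to 0.00061), *STP1* from stage 1 to stage 3 *SUP35* (-0.14 to 0.0067), and, in *sup35-218* against stage 1, *BAT2* (-0.093 to 0.00081), *GCN4* (-0.068 to 0.11) and *GDH1* (-0.15 to 0.038). *GCN4* there was 0.0034 with no filter and 0.062 with the upper quartile, which gave *BAT2* 0.00089. The cause was not tested. Replicate numbers are shared by the groups, but the labels name no pairing of cultures. Residuals of same-numbered cultures correlated with r from -0.23 to 0.40, and those of differently numbered cultures with r from -0.42 to 0.33. With 3 same-numbered pairs in a comparison, these values cannot show whether cultures were paired. A replicate block, which sets aside stage 3 replicate 4, left the counts at 8, 7 and 9, but from stage 1 to stage 3 *SUP35* the log2FC of *LEU2* was 0.49 (not called), of *ILV6* 0.57 and of *GDH1* -0.51 (both called, edgeR adjusted p 0.0098 and 0.0165), *STP1* was 0.0016, and *BAP2* between the stage 3 groups was -0.030. For the ratios, a block of 3 same-numbered pairs, added after seeing the data, kept every direction (*BAT1* to *BAT2* -1.06, -0.88 and -1.94, *LEU4* to *LEU9* 0.41, -0.23 and 0.18, *LEU2* to *SUP35* -0.08), with exact sign-flip p of 0.25 or more, 0.25 being the smallest possible. The smallest p of the permutation test used for the ratios, 0.0571 or 0.1, limits what they can show.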

Other observations

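The genes outside the pathway whose log2 normalized CPM over the 10 cultures was most like that of *LEU2* were *OLE1*, the fatty acid desaturase (Pearson r 0.980), *SEC28* of the coatomer (0.976), *IMD2*, an IMP dehydrogenase (0.975), *SDH1* of succinate dehydrogenase (0.971) and *MMS2* (0.966). Those most like the mean of the other 9 genes were *PFF1* (0.993), *ISN1* (0.989), YMR187C (0.987), YHR180W (0.986) and *QDR2* (0.986). These genes are the highest of 5856 and the 10 cultures fall into 3 groups, so the values mainly describe a shared order of the groups.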
